A study of Danio rerio with 3 samples.

Results

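Expression of 7 transcription factor genes of myeloid cells (spi1a, spi1b, irf8, cebpa, cebp1, ikzf1 and cbfb) was compared between sorted cell populations of zebrafish embryos. The genes were chosen by name, with earlier results of these data known. All 7 were found among the 14428 genes of the deposited expression table. The embryos were wild-type animals at 72 hours post fertilization that carried both the mpeg1:mCherry and the mpx:EGFP transgene and received no treatment. The mpeg1 promoter drives the first reporter in macrophages, and the mpx promoter drives the second in neutrophils. Cells from a pool of about 1000 embryos were sorted into mCherry+ only, EGFP+ only and double-negative cells, more than 50000 of each, and each population gave 1 RNA library. The values are FPKM (fragments counted per kilobase of a gene's transcript, relative to the size of the library), so levels of different genes within a library are per length and can be set side by side. With 1 library per population there is no spread between replicates to test a difference against, and p-values are left out. In sorted bulk libraries, fewer cells of a type and less RNA per cell cannot be told apart.

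Macrophages and neutrophils both descend from myeloid progenitors, in which PU.1, an Ets-family factor, switches on myeloid genes and opposes the erythroid factor Gata1. Zebrafish carry a pair of genes for PU.1-type factors, spi1a and spi1b. Downstream, interferon regulatory factor 8 (irf8) favours macrophages, and zebrafish without it have few macrophages and more neutrophils, whereas C/EBP leucine-zipper factors, here cebpa and cebp1, are known for the granulocyte program. Ikaros, encoded by ikzf1, is a zinc-finger factor best known from lymphocytes, and cbfb encodes the partner subunit that strengthens DNA binding by Runx factors.

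The endogenous genes behind the reporters went with the labels. The macrophage gene mpeg1 was at 1396 FPKM in the mCherry+ library and 9.92 in the EGFP+ library, and the myeloperoxidase gene mpx at 55.8 in the mCherry+ library and 12480 in the EGFP+ library. Of 6 macrophage markers, none was listed at 0, and they spanned 43.4 to 1396 FPKM in mCherry+, 0.592 to 9.92 in EGFP+ and 0.128 to 2.84 in double-negative cells. The 6 genes listed as neutrophil markers spanned 5.19 to 99.5 in mCherry+, 1557 to 12480 in EGFP+ and 2.41 to 17.4 in double-negative cells. They include cpa5, which is known as a mast-cell marker and set the limits of 5.19, 1557 and 17.4. Without cpa5 the spans were 26.0 to 99.5, 1928 to 12480 and 2.41 to 6.04 in the same order. Whether the EGFP+ library holds mast cells was not tested. Marker RNA of other tissues was present in all libraries. The 10 skeletal muscle markers summed to 3373 FPKM in mCherry+, 4557 in EGFP+ and 1903 in double-negative cells. The 9 erythroid markers summed to 167, 242 and 4287 in the same order of libraries. All genes together summed to 571639, 696949 and 356886 FPKM in that order, so these marker sums stand against unlike totals. The lymphoid and thrombocyte markers summed to 2.86, 2.78 and 5.47 in that order, and zap70 was listed at 0 in all 3 libraries. Whether the RNA of other tissues came from sorted cells or from free RNA was not tested, nor was its part in the results below.

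The 7 genes had most of their RNA in the reporter libraries. Summed over the 7, the FPKM came to 816 among mCherry+ cells, 1200.5 among EGFP+ cells and 23.6 among double-negative cells. In the mCherry+ library the order of levels was spi1a, spi1b, cebpa, irf8, cbfb, ikzf1 and cebp1. In the EGFP+ library it was cebp1, spi1b, spi1a, cebpa, cbfb, ikzf1 and irf8. The gene at the top of the neutrophil order was thus the last in the macrophage order, and irf8, in the middle of the macrophage order, was the last in the neutrophil order.

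**Figure D1:**
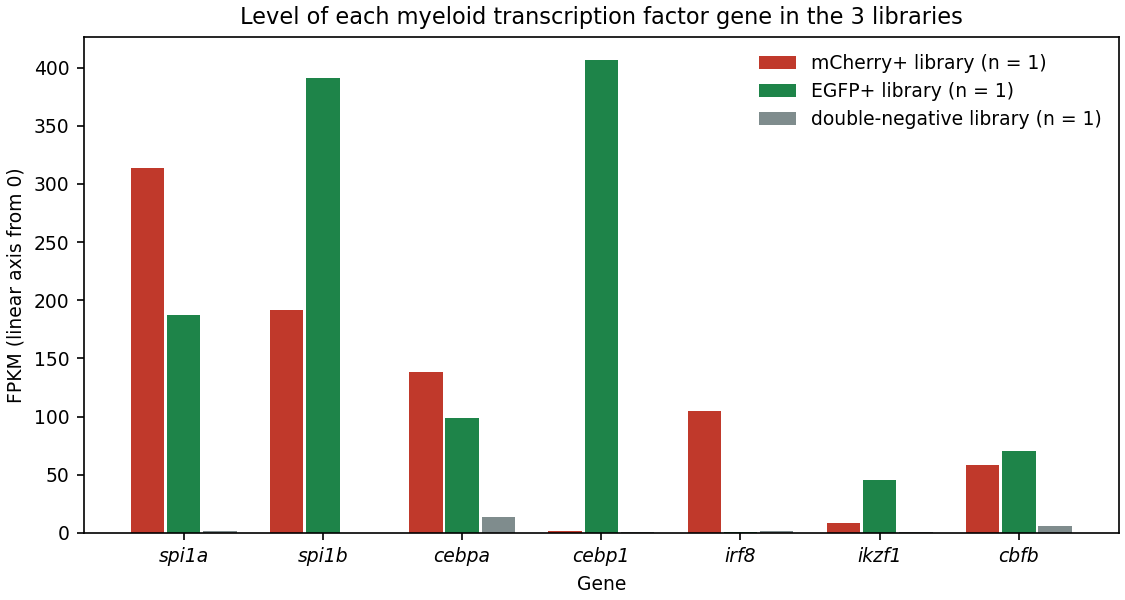
FPKM (linear vertical axis) of the 7 genes, 1 library per population (mCherry+, EGFP+, double-negative). Nearest to 0 in a reporter library are cebp1, at 1.59 in mCherry+, and irf8, at 0.565 in EGFP+. The mCherry+ level of ikzf1, 8.55, is also low on this axis, and cebpa has the highest double-negative level, 13.5.

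The mCherry+ and EGFP+ libraries were set against each other to separate the macrophage from the neutrophil population. Ratios are log2 of (FPKM + 1), a scale that understates differences of genes with low values, and a gene counts as different past a 4-fold ratio. Of the 7 genes, 1 was at least 4-fold higher in mCherry+ cells (irf8) and 2 were at least 4-fold lower (cebp1 and ikzf1). As background, 12285 genes reached 1 FPKM in a library, among them all 7. Of these measured genes 3.9% were past 4-fold in the higher direction and 3.34% in the lower one. Among genes that reached 10 FPKM in a library, as all 7 did, the shares were 5.95% and 4.94%. The median log2 ratio was −0.27 over the 7 genes and −0.08 over all measured genes. The log2 ratios of 54 housekeeping genes had an SD of 0.87, computed without the added 1. This is a spread over genes between different cell populations, so real differences and measurement error are mixed in it. It gives a scale for the ratios and is not the error of a single gene.

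The gene irf8 was at 105 FPKM in mCherry+ cells, 0.565 in EGFP+ cells and 1.44 in double-negative cells. It was high in the mCherry+ library alone, and its levels in the other libraries were both under 1.5. The log2 ratio of mCherry+ over EGFP+ was 6.08, rank 17 from the top of the 12285 genes and the highest of 82 measured genes on the transcription factor lists used here.

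The gene cebp1 showed the opposite pattern, with 1.59 FPKM in mCherry+ cells, 406 in EGFP+ cells and 0.488 in double-negative cells. It was high in the EGFP+ library alone. Its log2 ratio of mCherry+ over EGFP+ was −7.30, rank 9 from the bottom of all measured genes and the lowest of the 82 listed transcription factors. At 406 FPKM it was also the fourth highest of 90 listed factors in EGFP+ cells, after fos, xbp1 and jun.

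The low values of both genes lay where lineage markers of the opposite population lay. The mCherry+ level of cebp1 was 0.391% of its EGFP+ level, and for the 6 neutrophil markers this share ran from 0.326% for the lysozyme gene lyz to 5.16% for lect2l, with a median of 0.618% and 0.447% for mpx. For irf8 the EGFP+ level was 0.54% of the mCherry+ level, and for the 6 macrophage markers the share ran from 0.384% for the receptor gene csf1ra to 1.83% for mfap4, with 0.711% for mpeg1. Both shares are within the span of the markers. Whether these traces come from the cells themselves or from cells or RNA of the other population was not tested.

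**Figure D2:**
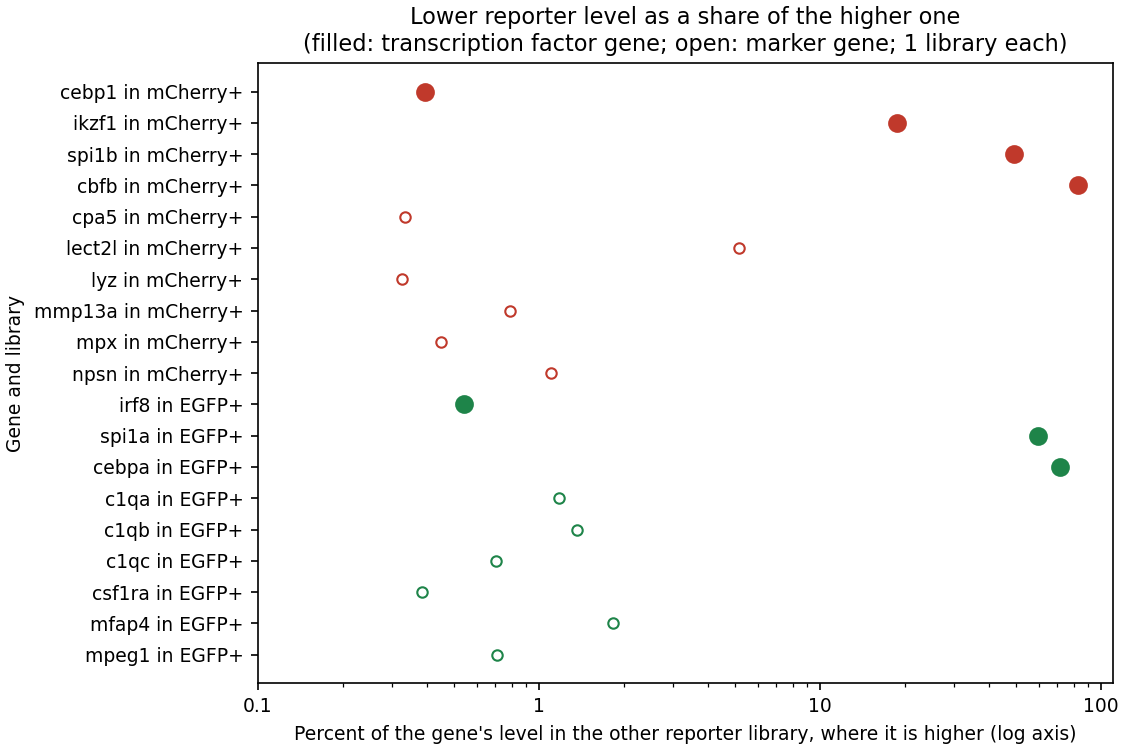
Level in the reporter library where a gene is lower, as a percent of the reporter library where it is higher (log horizontal axis), for the 7 transcription factor genes (filled) and 12 lineage markers (open); red stands for the mCherry+ and green for the EGFP+ library. The genes cebp1 (0.391%) and irf8 (0.54%) lie among the markers, while ikzf1 (18.9%), spi1b (49.0%), spi1a (59.8%), cebpa (71.8%) and cbfb (82.7%) lie to the right of every marker.

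Ikaros was the other gene past the threshold. The gene ikzf1 was at 8.55 FPKM in mCherry+ cells, 45.3 in EGFP+ cells and 0.627 in double-negative cells. Its mCherry+ level was 18.9% of the EGFP+ level, above the share of each of the 6 neutrophil markers. The log2 ratio of mCherry+ over EGFP+ was −2.28, and it missed the 4-fold threshold at −1.89 with 5 added in place of 1 and at −1.99 after equalising the FPKM sums of the libraries. The 9 lymphoid and thrombocyte markers reached at most 1.62 FPKM in mCherry+ cells and 1.16 in EGFP+ cells. Which cells held the ikzf1 RNA was not tested.

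The remaining 4 genes were expressed in both reporter populations. The gene spi1a was at 313 FPKM in mCherry+ cells, 188 in EGFP+ cells and 1.43 in double-negative cells, a log2 ratio of mCherry+ over EGFP+ of 0.74. The gene cebpa was at 138, 99.0 and 13.5 FPKM in the same order, a log2 ratio of 0.47. The gene cbfb was at 58.2, 70.5 and 6.13, a log2 ratio of −0.27, which was 0.01 after equalising the FPKM sums. These 3 ratios are smaller than the housekeeping SD of 0.87. That SD is a spread over genes, so this does not place the ratios within measurement error. The gene spi1b was at 192 FPKM in mCherry+ cells, 391 in EGFP+ cells and listed at 0 in double-negative cells, and its log2 ratio of −1.02 is just beyond that SD. After equalising the FPKM sums the ratio was −0.74 for spi1b and 1.02 for spi1a. That scaling moves the mean of the housekeeping ratios, −0.01 as deposited, along with these genes. The scaled values are therefore not set against the SD.

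**Figure D3:**
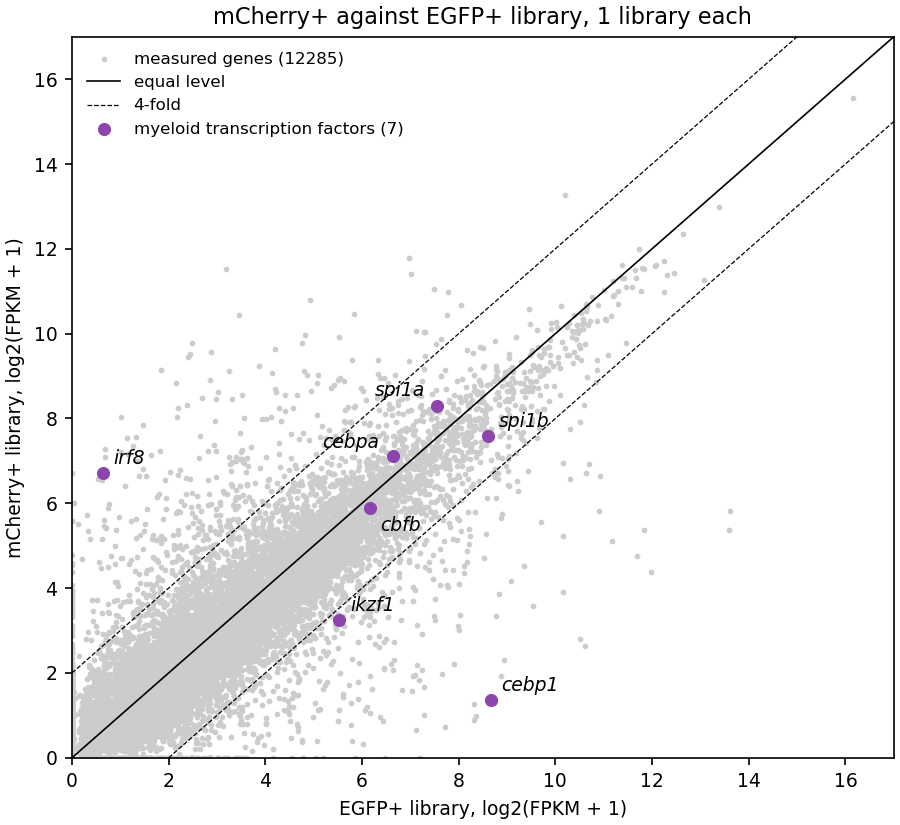
Level in the mCherry+ library (vertical axis) against the EGFP+ library (horizontal axis), both as log2(FPKM + 1), for 12285 measured genes in grey and the 7 transcription factor genes in purple; the solid line marks equal levels and the dashed lines 4-fold. The genes irf8 (ratio 6.08) and cebp1 (−7.30) are far from the dashed lines, ikzf1 (−2.28) lies just past the lower one, and spi1a, spi1b, cebpa and cbfb lie between them.

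The PU.1 paralogs were compared within each library, where library scaling cancels. In mCherry+ cells spi1a stood at 313 and spi1b at 192 FPKM, so spi1a made up 62.0% of their sum. In EGFP+ cells spi1a stood at 188 and spi1b at 391 FPKM, so spi1a made up 32.4%. The log2 ratio of spi1a over spi1b was 0.70 in mCherry+ and −1.06 in EGFP+ cells, and the order of the paralogs was thus reversed between the populations. The 2 ratios differed by 1.76. The housekeeping SD of 0.87 is for ratios of single genes and gives no scale for this difference of 2 ratios. With 1 library per population, whether the reversal would recur was not tested. As deposited, the summed level of both genes differed little, 505 FPKM in mCherry+ and 579 in EGFP+ cells, a ratio of 0.873. Library scaling does not cancel in this ratio between libraries. The FPKM sums of the libraries had a log2 shift of −0.29 for mCherry+ over EGFP+, so the direction of the ratio depends on the scaling. In double-negative cells spi1a was at 1.43 and spi1b was listed at 0, too low to order them. How reads that match both paralogs were divided in the deposited quantification is unknown here.

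The C/EBP pair differed more. In mCherry+ cells cebpa made up 98.9% of the summed FPKM of cebpa and cebp1, and in EGFP+ cells 19.6%. The log2 ratio of cebpa over cebp1 was 5.75 in mCherry+, −2.03 in EGFP+ and 3.28 in double-negative cells. The summed level as deposited was 139.5 FPKM in mCherry+ cells, 505 in EGFP+ cells and 14.0 in double-negative cells. Unlike the PU.1 sum it was 0.276 times the EGFP+ level in mCherry+ cells. The size of the cebpa over cebp1 ratio in mCherry+ and double-negative cells depends on the added constant because cebp1 is near 0 there. Its sign was the same with 0.1 and with 5 added.

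**Figure D4:**
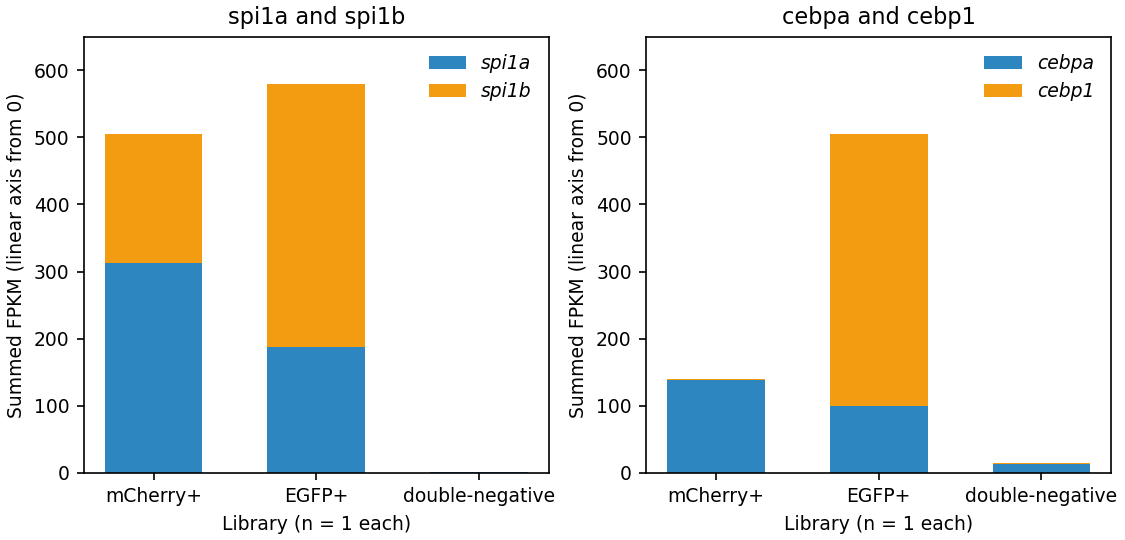
Stacked FPKM (linear axis from 0) of spi1a and spi1b (left) and of cebpa and cebp1 (right) in each library, 1 library each. The PU.1 stack is of similar height in mCherry+ (505) and EGFP+ (579) cells with the larger part changing from spi1a to spi1b, while the C/EBP stack is mostly cebpa in mCherry+ cells and mostly cebp1 in EGFP+ cells.

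Against double-negative cells, the comparison asks which of these genes were higher in a reporter population than in the average of cells without either reporter. That average covers many tissues, so the comparison does not show that a gene is limited to the reporter cells. In mCherry+ cells 6 of the 7 genes were at least 4-fold higher than in double-negative cells, all but cebp1, and none was 4-fold lower; the background was 8.18% of measured genes higher and 7.36% lower. In EGFP+ cells 6 of the 7 were at least 4-fold higher, all but irf8, and none was 4-fold lower. The background there was 8.53% higher and 5.38% lower. Among genes that reached 10 FPKM in a library, 13.8% were higher and 8.64% lower in mCherry+ cells. In EGFP+ cells these shares were 14.5% and 6.24%. Both comparisons use the same double-negative library, so they are not independent. The 7 genes were also chosen with earlier results of these data known, so the background gives scale and is no test. The 7 genes had a median log2 ratio of 3.26 in mCherry+ and 4.83 in EGFP+ cells over double-negative cells, against −0.04 and −0.05 over all measured genes.

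Relative to double-negative cells, the log2 ratios in mCherry+ cells were 7.02 for spi1a, 5.44 for irf8, 3.26 for cebpa, 3.06 for cbfb, 2.55 for ikzf1 and 0.80 for cebp1. In EGFP+ cells they were 8.10 for cebp1, 6.28 for spi1a, 4.83 for ikzf1, 3.33 for cbfb, 2.79 for cebpa and −0.64 for irf8. The ratio of spi1b has no fixed size because it was listed at 0 in double-negative cells, and it ranged from 5.30 to 10.9 in mCherry+ and from 6.31 to 11.9 in EGFP+ cells over the settings tried. Median-ratio scaling is based on the genes at 5 FPKM or more in every library. It gave a log2 shift of 0.37 in mCherry+ and 0.48 in EGFP+ cells over double-negative cells. Relative to that shift cebpa stood at 2.91 in mCherry+ and 2.33 in EGFP+ cells, cbfb at 2.72 and 2.89, and ikzf1 at 2.36 and 4.53. The call of cebpa in EGFP+ cells was lost after equalising the FPKM sums (1.86), and that of ikzf1 in mCherry+ cells with 5 added (1.27).

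The double-negative level separated cebpa and cbfb from the other genes. For cebpa it was 9.78% of the highest library and for cbfb 8.69%, against at most 1.38% for the other 5 genes. The 6 macrophage markers stood in double-negative cells at 0.204% to 0.494% of their mCherry+ level, and the 6 neutrophil markers at 0.0195% to 1.12% of their EGFP+ level. The 1.12% is that of cpa5, known as a mast-cell marker, and the next highest neutrophil share was 0.313% for lect2l. The double-negative shares of cebpa and cbfb are above those of every lineage marker used here. Those of irf8 (1.37%) and ikzf1 (1.38%) are above them too, by a small margin over cpa5 and a wider one over the rest. The shares of spi1a (0.455%) and cebp1 (0.12%) are within the span of the markers. In the double-negative library, 9 erythroid markers reached up to 2201 FPKM and 8 epidermis markers up to 1468. The 10 liver and gut markers reached up to 1033, the 10 muscle markers up to 640 and the 8 neuron markers up to 131. C/EBP-alpha is also known as a liver factor, but which cells held the cebpa RNA was not tested.

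The families of these factors were examined from lists of named genes. The shares of all measured genes given above are the background for the counts as deposited in each comparison. Of 5 measured C/EBP genes, 1 was at least 4-fold lower in mCherry+ than in EGFP+ cells, namely cebp1. The inflammation-responsive factor gene cebpb was at 123 in mCherry+, 203 in EGFP+ and 23.9 FPKM in double-negative cells, at least 4-fold above double-negative in both as deposited, though not in mCherry+ cells after median-ratio, housekeeping or equal-sum scaling. The gene cebpd was at 13.8, 15.5 and 54.7 FPKM in the same order, with its highest level in double-negative cells, and cebpg at 42.3, 52.9 and 32.9. Over double-negative cells the log2 ratio of cebpd was −1.91 in mCherry+ and −1.75 in EGFP+ cells, short of 4-fold as deposited. It was past 4-fold lower in both after median-ratio (−2.27 and −2.21), housekeeping and equal-sum scaling.

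Of 19 measured Ets-family genes, 1 was at least 4-fold higher in mCherry+ than in EGFP+ cells and 2 at least 4-fold lower, with a median log2 ratio of −0.73. The higher gene was etv4, a target of fibroblast growth factor signalling, at 32.3 FPKM in mCherry+ and 2.58 in EGFP+ cells. The lower ones were fli1a, known from endothelium and blood, at 9.02 in mCherry+ and 65.0 in EGFP+ cells, and its relative erg, at 1.02 in mCherry+ and 8.44 in EGFP+ cells. Against double-negative cells 5 of the 19 were at least 4-fold higher in mCherry+ and 9 in EGFP+ cells. After equalising the FPKM sums 6 were left in EGFP+ cells, when 4.42% of all measured genes were higher there. In both comparisons spi1a and spi1b had the highest ratios. Endothelial markers, 6 in number, summed to 20.6 FPKM in mCherry+, 14.2 in EGFP+ and 21.6 in double-negative cells. The source of the fli1a and erg RNA was not tested.

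Among 9 measured interferon regulatory factor genes, irf8 was the one past 4-fold between mCherry+ and EGFP+ cells. The gene irf7, a factor for type I interferon genes, was at 28.5 FPKM in mCherry+, 67.0 in EGFP+ and 1.91 in double-negative cells. The gene irf5 was at 16.6, 13.6 and 1.74 in the same order. Against double-negative cells 4 of the 9 were at least 4-fold higher in mCherry+ cells (irf3, irf5, irf7 and irf8). In EGFP+ cells 4 were higher (irf2, irf3, irf5 and irf7). Of these, 1 was left after equalising the FPKM sums, when 4.42% of all measured genes were higher in EGFP+ cells.

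In the reporter libraries the partners of Cbfb and relatives of Ikaros were lower in level than cbfb and ikzf1. In double-negative cells ikzf1, at 0.627 FPKM, was below its relative ikzf5, at 5.71. Of the Runx genes, runx1, a regulator of blood stem cell formation, was at 7.39 FPKM in mCherry+, 6.99 in EGFP+ and 1.30 in double-negative cells. The gene runx3 was at 6.52 in mCherry+, 34.7 in EGFP+ and 1.33 in double-negative cells, a log2 ratio of mCherry+ over EGFP+ of −2.25, close to the −2.28 of ikzf1 and, like it, short of 4-fold after equalising the FPKM sums. The level of cbfb itself was thus nearly equal in both reporter libraries while runx3 was lower in mCherry+ cells. Of 4 measured Ikaros-family genes ikzf1 was the one past 4-fold in any comparison, and ikzf5 was at 3.52, 4.68 and 5.71 FPKM in mCherry+, EGFP+ and double-negative cells.

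A list of factors known as partners or opponents of PU.1 and C/EBP gave 6 of 38 measured genes past 4-fold in favour of mCherry+ and 1 in favour of EGFP+ cells. The largest ratio in favour of mCherry+ among these 38 was that of mitfb, which encodes a factor of the Mitf family, at 48.6 FPKM in mCherry+, 1.51 in EGFP+ and 0.911 in double-negative cells. In EGFP+ cells none of the 38 was past 4-fold against double-negative cells as deposited. After median-ratio, housekeeping and equal-sum scaling 4, 5 and 8 of them were lower. The shares of all measured genes lower under these scalings were 10.4%, 11.6% and 17.8%. The blood progenitor gene cmyb was at 4.23 in mCherry+ and 17.7 FPKM in EGFP+ cells, and the PU.1 opponent gata1a at 0.179 in mCherry+, 1.60 in EGFP+ and 1.12 in double-negative cells.

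**Figure D5:**
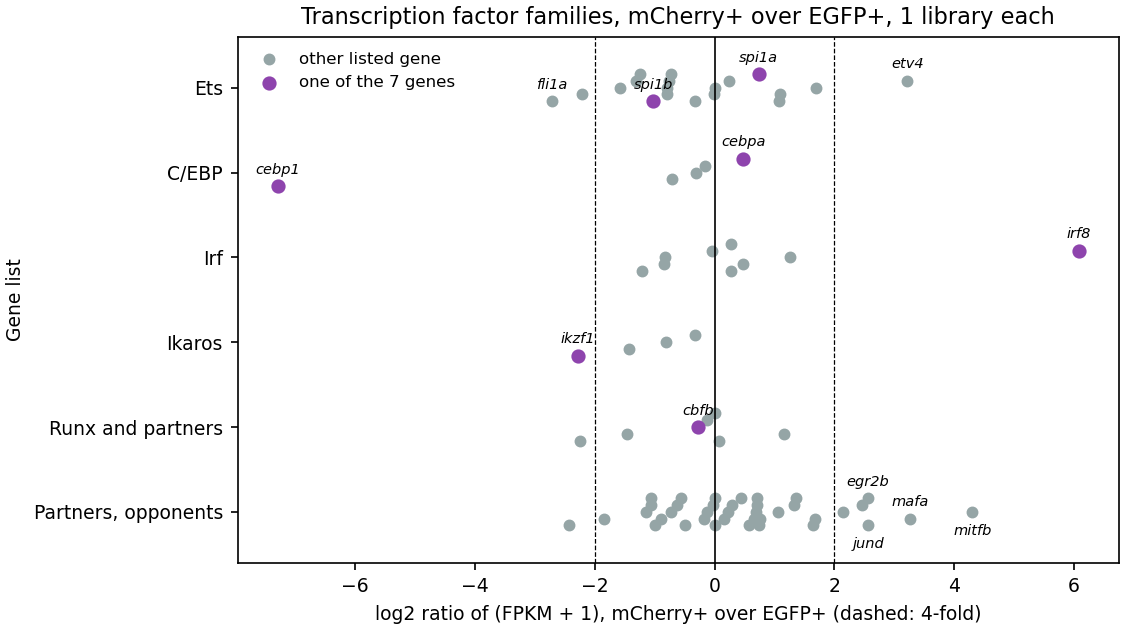
Log2 ratio of (FPKM + 1), mCherry+ over EGFP+ (horizontal axis; dashed lines at 4-fold), for each measured gene of 6 transcription factor lists, with the 7 genes in purple and vertical offsets only to separate points. In this plot irf8 (6.08) is at the right end of all lists, followed by mitfb (4.30), and cebp1 (−7.30) at the left end, with fli1a (−2.72) the next lowest.

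A list of genes known in vertebrates as targets or markers downstream of these factors had 29 measured genes. Of these, 28 were at least 4-fold higher in mCherry+ and 21 in EGFP+ cells than in double-negative cells, and none was 4-fold lower. Over all measured genes the shares higher were 8.18% and 8.53%. The list holds mpeg1 and mpx, the genes behind the reporters, and other lineage markers, so its counts are no test of the factors. Between the reporter libraries 9 of the 29 were past 4-fold in favour of mCherry+ (3.9% of all measured genes) and 6 in favour of EGFP+ cells (3.34%). The higher ones included csf1ra, the macrophage growth factor receptor gene, at 263 in mCherry+ and 1.01 FPKM in EGFP+ cells, and the lower ones mpx and lyz. The neutrophil markers mpx, lyz, npsn, mmp13a and lect2l are among the 28 counted in mCherry+ cells, where their levels were between 0.326% and 5.16% of their EGFP+ levels, and mfap4 is among the 21 counted in EGFP+ cells at 1.83% of its mCherry+ level. The granulocyte growth factor receptor gene csf3r was at 365 in mCherry+ and 659 in EGFP+ cells, on the same side as spi1b. Its log2 ratio of mCherry+ over EGFP+, −0.85, is smaller in size than the housekeeping SD of 0.87, which is a spread over genes and no measure of error.

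For each factor the genes with the most similar pattern were sought among 5911 named genes that reached 10 FPKM in a library, as the smallest Euclidean distance between log2(FPKM + 1) profiles centred on their own mean. A profile has 3 points, 1 per library, so likeness is easily reached. For spi1b they were csf3r (distance 0.15), ncf1, a subunit gene of the phagocyte NADPH oxidase (0.20), and coro1a, an actin regulator of leukocytes (0.56). For spi1a they were tagapb (0.43), fcer1g (0.48), a signalling chain of Fc receptors, and fermt3b (0.55), an integrin activator of blood cells. For irf8 they were tnfsf12 (0.04), grn1 (0.22), a progranulin gene, and fgl2 (0.28). For cebp1 they were the gelatinase gene mmp9 (0.22), the cytokine gene il4 (0.49) and the cathepsin gene ctssa (0.54); mmp9 was at 19.9 FPKM in mCherry+, 4036 in EGFP+ and 13.2 in double-negative cells.

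The profiles of cebpa, ikzf1 and cbfb were less distinct. Within a distance of 0.5 there were 57 genes for cebpa, 27 for ikzf1 and 64 for cbfb, against 2 each for spi1a, spi1b and cebp1 and 9 for irf8. The nearest were rab32a, sypl2b and arl6ip1 for cebpa, odc1, gsto2 and pgd for ikzf1, and zbtb2b, pou5f1 and fam49bb for cbfb. Among the 7 genes the closest pair was cebpa and cbfb (0.54), the PU.1 paralogs were 1.72 apart, cebpa and cebp1 5.62, and the most distant pair was irf8 and cebp1 (9.60). With 0.1 added in place of 1, 6 of the 21 nearest genes were found again.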

How the data were processed

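RNA from 3 sorted populations (1 library each) was prepared after ribosomal RNA removal with a low-input kit, per the labels' protocols. The authors deposited 1 table of FPKM per gene and library; the tools Cufflinks 2.2.1, TopHat2 2.0.11 and cutadapt and the build danRer7 are named in the submitters' processing notes, without settings; the annotation is not given in the sources used here. FPKM are shares of a library, so very high genes lower the rest. Of 219 to 329 genes under 0.5 FPKM in a pair of libraries, at most 3 shared a ratio to 3 decimals, so whole reads were not recovered; depth is unknown and no interval or detection limit is given.

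Ratios were log2(FPKM + 1), for 12285 genes at 1 FPKM or more in at least 1 library, with a 4-fold threshold and no test (Python 3.11.15, numpy 2.4.6, pandas 2.3.3). Calls were run on simulated libraries with changes well past 4-fold in well-expressed genes and less scatter than the housekeeping genes here. Calls near the threshold or at low values were therefore not checked. Names come from the table; listed genes absent under their symbol were sought by RefSeq synonym (assembly GRCz12tu), which gave cmyb for myb. Members and lists were chosen with earlier results of these data known. Named were all members, up to 3 highest and 3 lowest genes of each list at 5 FPKM or more per comparison, mpeg1 and mpx, and 3 nearest profiles per member. The genes gata1a, irf3, fos, jun, fosb, egr1, junba and the markers lect2l, mfap4, npsn, cpa5 and zap70 were named after their values were seen. Alternatives changed the pseudocount, filter, scaling and threshold. Some listed genes are not reported here.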

Additional observations from a re-analysis of the deposited data

How the results depend on the processing

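Over 9 settings for each gene and comparison, no ratio past 4-fold in the 7 genes changed direction. Of 189 values, 181 stayed on their side of the threshold, 7 fell short of it and 1 newly passed it (spi1b, mCherry+ over EGFP+, at the 2-fold threshold). Filter and threshold settings leave each ratio as it was, so only the pseudocounts and scalings could change a direction. The filters could not change a call of the 7 genes either, so the 181 overstates how much was put to the test. The number of the 7 genes lower in mCherry+ than in EGFP+ cells was 1 in place of 2 with a pseudocount of 5, with equal FPKM sums and at 8-fold, each time without ikzf1. The cebpa over cebp1 log2 ratio was 6.35 with a pseudocount of 0.1 and 4.44 with 5 in mCherry+ cells, and 4.53 and 1.75 in double-negative cells. With a pseudocount of 0.1, 6 of 21 nearest profiles were found again.

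Background counts moved more. For mCherry+ over EGFP+, higher and lower genes numbered 479 and 410, and 898 and 824 with a pseudocount of 0.1, 281 and 222 with 5, 1473 and 1637 at 2-fold, and 217 and 178 at 8-fold. For mCherry+ over double-negative (1005 and 904) they were 651 and 212 with a pseudocount of 5, 665 and 1856 with equal FPKM sums, 2445 and 2959 at 2-fold, and 480 and 172 at 8-fold; lower genes were 1951 with a pseudocount of 0.1, 600 with a minimum FPKM of 10, 1382 after median-ratio and 1590 after housekeeping scaling. For EGFP+ over double-negative (1048 and 661) they were 683 and 136 with a pseudocount of 5, 543 and 2187 with equal FPKM sums, 2609 and 3072 at 2-fold, and 486 and 123 at 8-fold; lower genes were 1659 with a pseudocount of 0.1, 433 with a minimum FPKM of 10, 1278 after median-ratio and 1420 after housekeeping scaling. The share of calls that were higher was 52.6% for mCherry+ over double-negative, and 36.4%, 31.0% and 26.4% under the median-ratio, housekeeping and equal-sum scalings; for EGFP+ over double-negative it was 61.3%, and 36.5%, 33.4% and 19.9%. Scalings of the list counts in the report were added after seeing the data. The causes were not tested. Each population had 1 library and the read depth is unknown, so low values carry no interval. No paired analysis was possible because each population had 1 library.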

Other observations

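The listed factor with the highest FPKM in each of the 3 libraries was fos, an immediate-early gene, a kind of gene that responds to growth signals and to stress; the genes fos, jun, fosb, egr1 and junba were named after their values were seen. The AP-1 gene fos was at 1200.5 FPKM in mCherry+, 710 in EGFP+ and 1018 in double-negative cells, and its partner jun at 901, 432 and 771 in the same order. The log2 ratio of mCherry+ over EGFP+ was 2.57 for jund (308 FPKM in mCherry+, 51.1 in EGFP+ and 124 in double-negative cells), 1.67 for fosb, 1.63 for egr1 and 0.15 for junba. In the mCherry+ library spi1a ranked 7 among the 90 listed factors, and in the EGFP+ library cebp1 ranked 4 and spi1b 5. In the double-negative library the highest of the 7 genes, cebpa, ranked 29.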
